A study of Mus musculus with 8 samples.

Results

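Complement is a cascade of plasma and cell-surface proteins, and 8 genes of it are described here across astrocyte cultures with and without RGC-32 and with and without TGF-β. They were chosen by name, as the rows of the deposited count table for the complement components C3, C4b (listed there as C4B), C1qa (C1QA), C1qb (C1QB) and C1qc (C1QC), the anaphylatoxin receptors C3ar1 (C3AR1) and C5ar1 (C5AR1), and the membrane regulator Cd59a (CD59A). All 8 were among the 13937 genes of the table, and all 8 passed the filter on low counts that left 13509 genes for testing. The lowest count of any of them in any library was 533 reads, for C5ar1.

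RGC-32, the product of Rgcc, owes its name to its induction by complement, and the study asked how its loss alters what TGF-β does to astrocytes. The 8 bulk RNA sequencing libraries came from primary brain astrocytes of mice of the C57BL/6 strain taken on postnatal day 1, either wild type (WT) or RGC-32 knock-out (KO). Each genotype was left untreated (control) or exposed for 24 h to 10 ng/ml of TGF-β after overnight serum starvation, with 2 biological replicates in each of the 4 groups. All cultures had been grown in serum-containing medium and shaken to remove loosely attached oligodendrocyte precursors and neurons, so they are serum-expanded neonatal cells and not adult astrocytes, and whether the replicates shared a litter or a preparation is not stated.

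Complement can be started by C1q, a recognition molecule assembled from the chains encoded by C1qa, C1qb and C1qc, which works through C4 and C2 to cleave C3. Cleavage of C3 and then of C5 releases the anaphylatoxins C3a and C5a, which signal through C3ar1 and C5ar1, while membrane regulators such as CD59 and CD55 limit the damage to the host cell. In the brain, C1q and both anaphylatoxin receptors are chiefly known from microglia, and C3 and C4 are known from reactive astrocytes.

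Between 14920561 and 18956038 reads were counted per library. Rgcc, the targeted gene, had 80 and 94 reads in untreated WT, 215 and 362 in WT with TGF-β, 61 and 28 in untreated RGC-32 KO and 64 and 26 in RGC-32 KO with TGF-β. It was lower in every RGC-32 KO library than in every WT library but was not at 0. The study reports that nearly all of the isolated cells were positive for GFAP, an astrocyte marker. Here the astrocyte label was checked against the RNA of 10 astrocyte markers, all of which were tested. Their summed level, in CPM (the count of a gene relative to the normalized total of its library), was 4620 and 4847 in the WT controls, 3705 and 3585 in WT with TGF-β, 5342 and 6005 in the RGC-32 KO controls and 4384 and 4716 in RGC-32 KO with TGF-β. The sum was thus lower with TGF-β in each genotype, without overlap. The median log2 fold change of the 10 was -0.39 in WT cultures and -0.40 in RGC-32 KO cultures, and 2 of the 10 were called lower in each genotype and none higher. A gene was called at a log2 fold change beyond 0.6 in either direction, 0.6 included, with an adjusted p under 0.05 in the edgeR quasi-likelihood test. With no fold limit, 7 and 6 of the 10 were lower at an adjusted p under 0.05, beside 14.3% and 11.8% of all tested genes. By that rule 1 of the 10 was higher in each genotype. Gja1 had 326 to 356 CPM in the controls and 419 to 456 CPM with TGF-β. The 14 microglial or macrophage markers were all present as well, with a summed level of 1414 to 1867 CPM. The lowest of them per length, P2ry12, was at up to 4.19 FPKM and the defining receptor Csf1r was at 45.1 to 61.2 FPKM, and none was at 0 in any library. In bulk libraries, fewer cells of a type and less RNA of a gene per cell cannot be told apart.

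The 8 genes differed widely in abundance. Levels between genes are compared here on the deposited FPKM values only, which are scaled to transcript length. C3, the component on which all routes of activation converge, had a mean of 553 FPKM ± 141 (SD, n = 8 libraries of all 4 groups) and ranked 55th of 13362 tested genes with an FPKM value. C1qa followed at 194 FPKM ± 43.8, C1qb at 167 ± 37.2 and C1qc at 165 ± 36.9, on the same scale. Cd59a (43.2 FPKM ± 7.02) and C4b (36.8 FPKM ± 3.19) lay below them, and C3ar1 (24.1 FPKM ± 7.54) and C5ar1 (19.2 FPKM ± 5.73) were the lowest, the last of these at rank 3539. The lowest C3 library, at 412 FPKM, stood above the highest C1qa library, at 264 FPKM. The lowest C1qc library, at 122 FPKM, likewise stood above the highest Cd59a library, at 55.2 FPKM. All other neighbours in this order overlapped in range, although C1qa was above C1qb, and C3ar1 above C5ar1, within each of the 8 libraries.

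The 3 genes of C1q lie side by side on the minus strand of chromosome 4, within 18675 bases of the GRCm38 build (GENCODE M21), in the order C1qb (chr4:136880129-136886187), C1qc (chr4:136889804-136893065) and C1qa (chr4:136895917-136898803). C5ar1 (chr7:16246743-16259540, minus strand) has its relative C5ar2 as a neighbour, 2588 bases away. Promoter sequence, from 250 bases before to 50 bases after the start, was found in RefSeq (GRCm38.p6) for 6 of the 8 genes, the exceptions being C1qa and C4b. The promoters of C1qb and C1qc, and of C3ar1 and C5ar1, are shown because the transcripts of each pair were close to proportional across libraries. Capitals mark every match, on either strand, to GAGGAA (the core bound by PU.1, a factor of myeloid cells), CAGACA (the box bound by SMAD proteins), TGACTCA (AP-1) or TTGCNNAA (C/EBP), and no match overlaps another in these windows. All 4 are on the minus strand and are written 5′ to 3′ as transcribed.
C1qb, chr4:136886151-136886450: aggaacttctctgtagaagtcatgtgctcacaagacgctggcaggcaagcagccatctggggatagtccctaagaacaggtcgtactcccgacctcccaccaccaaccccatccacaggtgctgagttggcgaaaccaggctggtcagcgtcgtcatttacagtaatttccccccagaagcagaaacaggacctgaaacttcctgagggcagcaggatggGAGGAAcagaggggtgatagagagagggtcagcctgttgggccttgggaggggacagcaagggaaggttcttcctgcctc
C1qc, chr4:136892865-136893164: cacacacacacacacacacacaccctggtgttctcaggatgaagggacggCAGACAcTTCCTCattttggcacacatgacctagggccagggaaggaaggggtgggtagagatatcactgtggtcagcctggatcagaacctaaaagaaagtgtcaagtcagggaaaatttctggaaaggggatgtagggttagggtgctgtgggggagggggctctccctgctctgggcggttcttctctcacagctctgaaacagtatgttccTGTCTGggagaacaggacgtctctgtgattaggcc
C3ar1, chr6:122856108-122856407: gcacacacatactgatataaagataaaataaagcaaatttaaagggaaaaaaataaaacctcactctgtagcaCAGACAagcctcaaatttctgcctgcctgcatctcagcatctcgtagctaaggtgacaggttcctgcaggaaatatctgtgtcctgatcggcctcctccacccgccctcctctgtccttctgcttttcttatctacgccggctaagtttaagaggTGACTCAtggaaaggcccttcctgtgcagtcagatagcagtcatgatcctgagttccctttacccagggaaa
C5ar1, chr7:16259289-16259588: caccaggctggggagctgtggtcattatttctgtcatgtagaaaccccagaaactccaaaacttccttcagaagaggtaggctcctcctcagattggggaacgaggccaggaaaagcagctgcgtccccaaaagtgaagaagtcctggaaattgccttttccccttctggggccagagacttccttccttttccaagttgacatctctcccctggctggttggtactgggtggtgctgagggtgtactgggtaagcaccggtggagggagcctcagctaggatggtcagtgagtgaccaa

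The PU.1 core occurred once in the windows of C1qb and C1qc and once in that of Cd59a (chr2:104095551-104095850, plus strand), and in 28.3% of the 27025 promoters searched. The SMAD box occurred at 2 places for C1qc and 1 place for C3ar1, and in 21.0% of all promoters. The AP-1 letters were present for C3ar1 (5.17% of all promoters) and the C/EBP letters for C3 (chr17:57228087-57228386, minus strand; 10.8% of all promoters), while C5ar1 held none of the 4. A match is a description of these letters, and its absence says only that they are not in this window.

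None of the 8 genes was called in any of the 5 comparisons. For TGF-β against control this was 0 of 8 in WT, where 13.4% of all tested genes were called, and 0 of 8 in RGC-32 KO cultures, where 11.5% were. At an unadjusted p under 0.05 the counts were 0 of 8 and 3 of 8, beside 44.3% and 41.2% of all genes, and DESeq2 and limma-voom called none either. The median log2 fold change of the 8 genes with TGF-β was -0.31 in WT cultures and -0.38 in RGC-32 KO cultures, and the median over all tested genes was 0.00 in both.

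**Figure D1:**
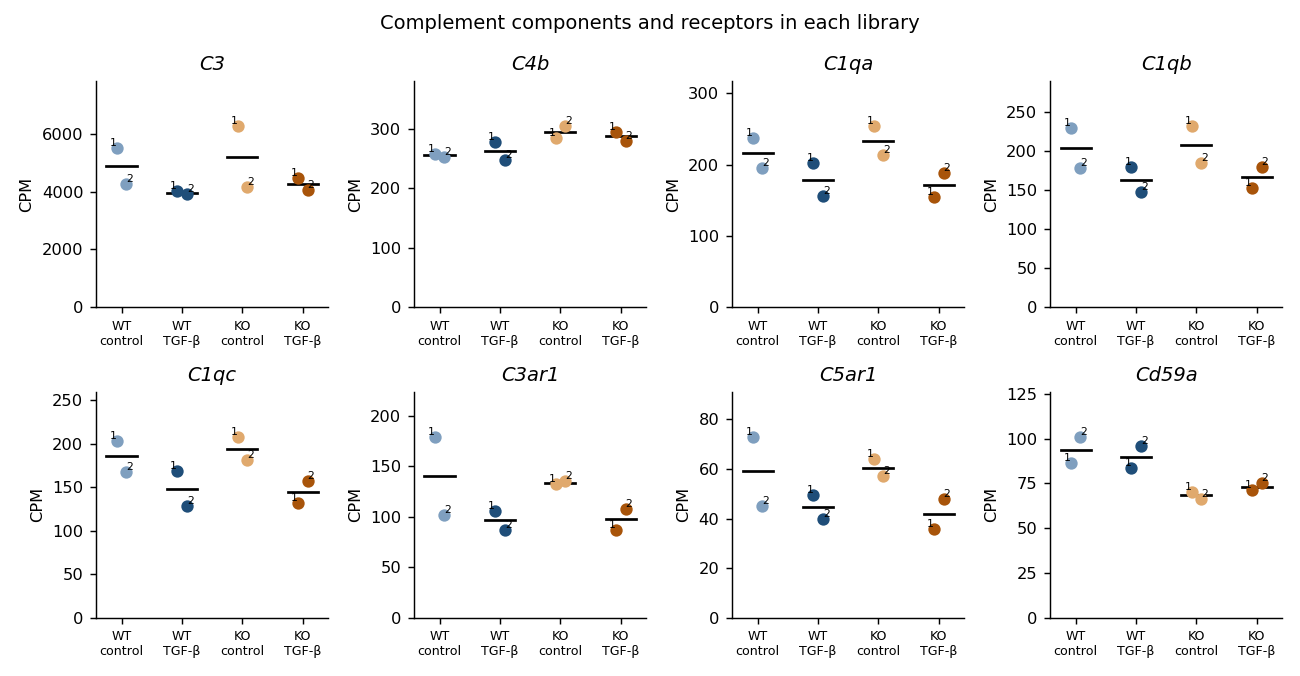
Level of each gene in CPM in every library, with 1 panel per gene, points numbered by replicate and a bar at the mean of the 2 libraries of a group. C3 in the RGC-32 KO controls spans 4150 to 6272 CPM, and all 4 RGC-32 KO libraries of Cd59a lie below all 4 WT libraries.

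The C1q chains were lower in the mean with TGF-β in both genotypes, by a margin that did not pass the edgeR test in either genotype alone. In RGC-32 KO cultures the adjusted p of C1qa and C1qc fell under 0.05 in some alternative settings, though neither gene was called. C1qa, which encodes the A chain, stood at 238 and 196 CPM in the WT controls, 202 and 156 CPM in WT with TGF-β, 254 and 213 CPM in the RGC-32 KO controls and 155 and 188 CPM in RGC-32 KO with TGF-β. In WT the lower control library lay below the higher TGF-β library, whereas in RGC-32 KO cultures both TGF-β libraries were below both controls. The log2 fold change was -0.28 in WT cultures (SE 0.16, adjusted p = 0.216) compared with -0.44 in RGC-32 KO cultures (SE 0.16, adjusted p = 0.0714).

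C1qb, which encodes the B chain, had 230 and 179 CPM in the WT controls, 180 and 147 CPM in WT with TGF-β, 232 and 185 CPM in the RGC-32 KO controls and 153 and 180 CPM in RGC-32 KO with TGF-β. C1qc, which encodes the C chain, had 203 and 168 CPM, 169 and 128 CPM, 208 and 181 CPM, and 132 and 157 CPM in the same 4 groups. Both repeated the arrangement of C1qa, with overlap in WT and none in RGC-32 KO cultures. The log2 fold change with TGF-β was -0.32 for C1qb in each genotype (adjusted p = 0.166 in WT cultures and 0.177 in RGC-32 KO). That of C1qc was -0.32 in WT cultures (adjusted p = 0.146) and -0.43 in RGC-32 KO cultures (adjusted p = 0.0717). Groups that do not overlap are common here, since in the RGC-32 KO comparison 32.9% of all tested genes had both TGF-β libraries below both controls.

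Within a library the 3 chains kept a near fixed proportion. The FPKM of C1qa was 1.15 to 1.20 times that of C1qc, and the FPKM of C1qb was 0.971 to 1.06 times that of C1qc, over the 8 libraries. The correlation of their log2 CPM between pairs of chains was 0.97 to 1.00 over these 8 libraries, which share 4 group means and so are not 8 independent points. By the same measure the genes closest to C1qa among 13073 genes were Fcrls, a marker of microglia (r = 0.982), Sgk3 (r = 0.982) and Ccdc22 (r = 0.976).

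C3 differed widely between replicates of the control groups. It stood at 5529 and 4260 CPM in the WT controls, 4008 and 3917 CPM in WT with TGF-β, 6272 and 4150 CPM in the RGC-32 KO controls and 4484 and 4046 CPM in RGC-32 KO with TGF-β. Replicate 1 was high among the controls of both genotypes, and the TGF-β libraries lay near the level of control replicate 2. With TGF-β the log2 fold change of C3 was -0.30 in WT cultures (SE 0.20, 95% interval -0.76 to 0.15, adjusted p = 0.274) and -0.29 in RGC-32 KO cultures (SE 0.20, 95% interval -0.75 to 0.17, adjusted p = 0.309). Control replicate 1 carried these values, since without it the log2 fold change was -0.10 in WT cultures and 0.02 in RGC-32 KO cultures. The genes whose log2 CPM followed C3 most closely over the 8 libraries were Nfkbia, an inhibitor and target of NF-κB (r = 0.975), Srxn1 (r = 0.973) and Rpl17 (r = 0.969). Nfkbia had the same high library in each control group, with 217 and 160 CPM in the WT controls and 240 and 159 CPM in the RGC-32 KO controls.

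C4b encodes mouse complement C4 and was the steadiest of the 8 genes, with a highest library 1.23 times the lowest in CPM. Its levels were 258 and 252 CPM in the WT controls, 278 and 248 CPM in WT with TGF-β, 284 and 304 CPM in the RGC-32 KO controls and 295 and 280 CPM in RGC-32 KO with TGF-β. The log2 fold change with TGF-β was 0.05 in WT cultures (95% interval -0.12 to 0.22, adjusted p = 0.663) and -0.03 in RGC-32 KO cultures (95% interval -0.20 to 0.14, adjusted p = 0.770), so a change of the size of the fold limit lay outside both intervals. Over the 8 libraries its log2 CPM was closest to that of Nfasc (r = 0.950), Serpina3n, a gene known from reactive astrocytes (r = 0.944), and Cadm2 (r = 0.922). The near-identical C4a lies 65209 bases away on chromosome 17 and had 1.45 to 1.99 FPKM, so reads shared by both copies may have been divided between them in a way the sources do not describe.

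Both anaphylatoxin receptors had lower means with TGF-β. C3ar1, the receptor for C3a (chr6:122847138-122856161, minus strand), had 179 and 102 CPM in the WT controls, 106 and 86.8 CPM in WT with TGF-β, 132 and 135 CPM in the RGC-32 KO controls and 86.9 and 108 CPM in RGC-32 KO with TGF-β. C5ar1, the receptor for C5a, had 72.9 and 45.1 CPM, 49.5 and 39.9 CPM, 63.9 and 57.1 CPM, and 35.7 and 47.8 CPM in those groups. In both genes WT control replicate 1 was the highest library of all 8, and WT control replicate 2 lay below the higher WT TGF-β library.

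The log2 fold change of C3ar1 was -0.54 in WT cultures (SE 0.24, adjusted p = 0.113) compared with -0.45 in RGC-32 KO cultures (SE 0.24, adjusted p = 0.186). That of C5ar1 was -0.40 in WT cultures (SE 0.23, adjusted p = 0.219) compared with -0.53 in RGC-32 KO cultures (SE 0.23, adjusted p = 0.120). For both receptors the adjusted p in RGC-32 KO cultures fell under 0.05 in some alternative settings, without a call. In WT the result hung on which control library was used. Without WT control replicate 2 both receptors were called, at -0.91 for C3ar1 and -0.72 for C5ar1, and without WT control replicate 1 they were at -0.08 and -0.01. The log2 CPM of the 2 receptors correlated at 0.97 over the 8 libraries, and each correlated with the C1q chains at 0.87 to 0.95.

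Cd59a (chr2:104095801-104115354, plus strand) encodes a glycolipid-anchored inhibitor of the membrane attack complex. Its levels were 86.3 and 101 CPM in the WT controls, 83.4 and 95.7 CPM in WT with TGF-β, 70.4 and 66.2 CPM in the RGC-32 KO controls and 71.4 and 75.0 CPM in RGC-32 KO with TGF-β. The log2 fold change with TGF-β was -0.07 in WT cultures (95% interval -0.29 to 0.15, adjusted p = 0.606) and 0.10 in RGC-32 KO cultures (95% interval -0.12 to 0.32, adjusted p = 0.475). Its neighbouring paralogue Cd59b, 4613 bases away, had 0.522 to 1.11 FPKM.

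**Figure D2:**
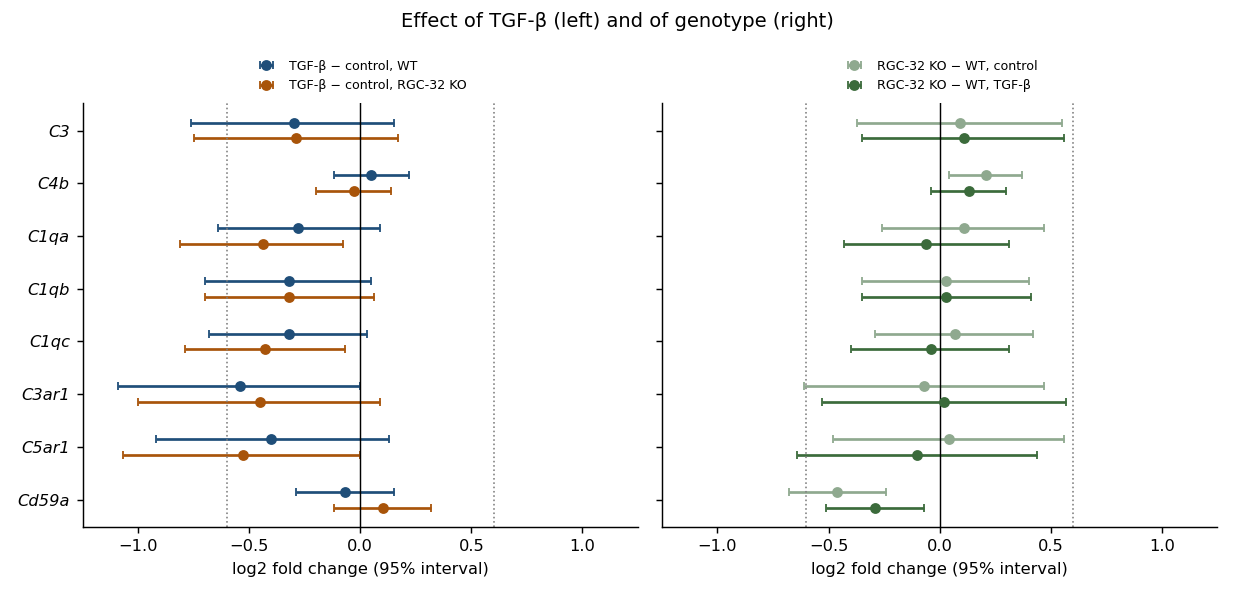
Log2 fold change of each gene with its 95% interval, for TGF-β against control in each genotype (left) and RGC-32 KO against WT in each treatment (right), with dotted lines at the fold limit of 0.6 in either direction. With TGF-β, 7 of the 8 values are below 0 in each genotype and the intervals of C3ar1 reach from -1.09 to 0.09, and Cd59a is below 0 in both genotype comparisons.

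An average of the TGF-β effect over both genotypes, chosen after the data were seen, uses 4 libraries a side. In it none of the 8 genes was called, beside 15.1% of all tested genes. With no fold limit, 5 of 8 were lower at an adjusted p under 0.05, and 22.4% of all tested genes were. The log2 CPM of these 5 correlated with each other at 0.87 to 1.00 over the 8 libraries, so they are not 5 independent results. The 5 were the C1q chains C1qa (log2 fold change -0.36, adjusted p = 0.0302), C1qb (-0.32, adjusted p = 0.0496) and C1qc (-0.38, adjusted p = 0.0228) and the receptors C3ar1 (-0.50, adjusted p = 0.0391) and C5ar1 (-0.46, adjusted p = 0.0449). C3 was at -0.30 with an adjusted p of 0.115. For each of the 5, at least 1 of the 4 TGF-β libraries overlapped the controls, and C3ar1 and C5ar1 were past the fold limit, at -0.69 and -0.64, without WT control replicate 2. None of the 5 kept an adjusted p under 0.05 without WT control replicate 1, WT TGF-β replicate 2, RGC-32 KO control replicate 1 or RGC-32 KO TGF-β replicate 1, where the adjusted p ran from 0.0555 to 0.141. Without WT control replicate 1 the log2 fold changes were -0.29, -0.23 and -0.30 for C1qa, C1qb and C1qc and -0.27 for each receptor. DESeq2 gave C3ar1 an adjusted p of 0.0621, but smaller values for C1qa (0.00132), C1qb (0.00562), C1qc (0.000659) and C5ar1 (0.00291). With limma-voom C1qb was at 0.0508 and C5ar1 at 0.0524. The limma-voom values of C1qa (0.0290), C1qc (0.0217) and C3ar1 (0.0450) stayed under 0.05. The astrocyte markers, in the same average, had a median of -0.42.

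Since C1q and both receptors are chiefly microglial in the brain, their levels are set beside those of 14 microglial or macrophage markers, none of them a complement gene. The summed marker level was 1762 and 1482 CPM in the WT controls, 1867 and 1414 CPM in WT with TGF-β, 1721 and 1650 CPM in the RGC-32 KO controls and 1514 and 1675 CPM in RGC-32 KO with TGF-β. Control and TGF-β libraries overlapped in both genotypes, and no marker of the 14 was called lower in either genotype alone. Tmem119, a surface marker of resident microglia, was the 1 marker called higher, at 0.99 in WT cultures (adjusted p = 0.00136) and 0.68 in RGC-32 KO cultures (adjusted p = 0.00800). Which cells of the cultures held its transcripts was not tested.

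The summed C1q chains were at 0.381 and 0.366 times the summed marker level in the WT controls and 0.295 and 0.305 times in WT with TGF-β. In RGC-32 KO cultures the ratio was 0.403 and 0.351 in the controls and 0.290 and 0.313 with TGF-β. All 4 TGF-β libraries were therefore below all 4 controls, and the log2 ratio differed by -0.32 in each genotype. With Csf1r, Cx3cr1, Ptprc, Tyrobp and Trem2 as the only markers, the ratio was 0.921 to 1.098 in the controls and 0.741 to 0.882 with TGF-β, and the log2 difference was -0.29 in WT cultures and -0.27 in RGC-32 KO cultures. The receptors behaved alike, with the sum of C3ar1 and C5ar1 at 0.099 to 0.143 times the marker level in the controls and 0.081 to 0.093 times with TGF-β. No p is given for these ratios, which are descriptions of genes chosen with earlier results known. In CPM, without division by the markers, TGF-β and control libraries overlapped for each C1q chain and each receptor. In CPM 20.2% of all tested genes had all 4 TGF-β libraries below all 4 controls. The matching share for ratios to the marker level was not computed.

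Markers of the same list also moved against each other. As a share of the summed level, Aif1, Tyrobp, Fcer1g and Cd68 were lower in all 4 TGF-β libraries than in all 4 controls, Tmem119 was higher, and the other 9 overlapped. Cd68, a lysosomal protein of phagocytes, ran from 60.8 to 87.0 CPM in the controls and from 42.5 to 60.1 CPM with TGF-β. The log2 fold change of Cd68 was -0.60 in WT cultures (adjusted p = 0.0618) and -0.64 in RGC-32 KO cultures (adjusted p = 0.0560). In the average over both genotypes Cd68 was called lower, at -0.62 (adjusted p = 0.0107), as the 1 marker of the 14. The part that cell composition plays in the C1q and receptor levels was not tested.

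**Figure D3:**
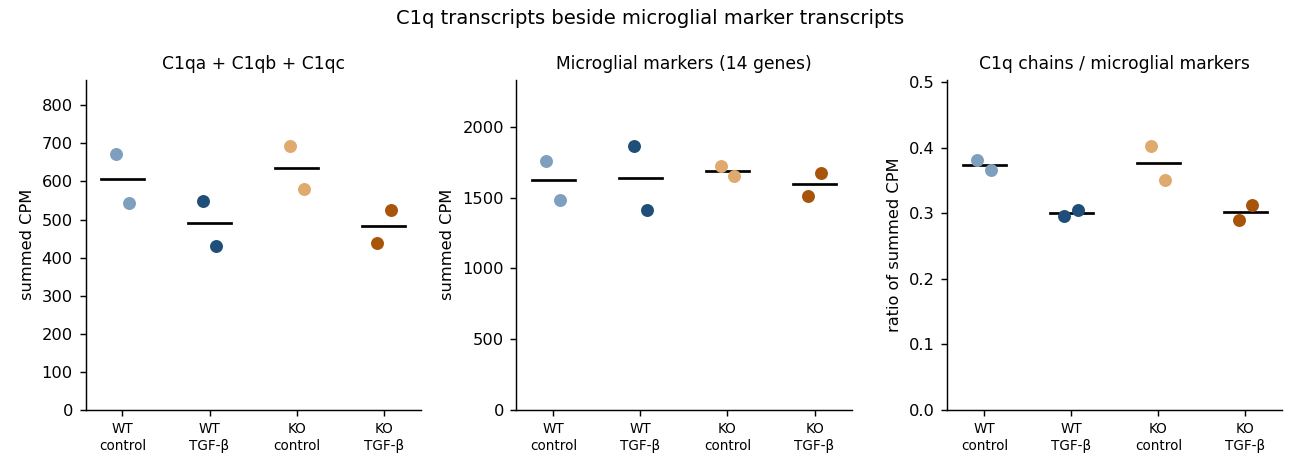
Summed CPM of the 3 C1q chains (left), summed CPM of 14 microglial markers (middle) and their ratio (right) in each library, with a bar at the mean of the 2 libraries of a group. The ratio runs from 0.351 to 0.403 in the controls and from 0.290 to 0.313 with TGF-β, while the marker sums overlap in both genotypes.

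RGC-32 KO and WT astrocytes were then compared within each treatment. None of the 8 genes was called, either without TGF-β (0.0370% of all tested genes called) or with it (0.0444%). At an unadjusted p under 0.05 there were 2 of 8 without TGF-β (6.84% of all genes) and 1 of 8 with it (11.7%), namely Cd59a in both and C4b in the controls.

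Cd59a was lower in every RGC-32 KO library, at 66.2 to 75.0 CPM, than in every WT library, at 83.4 to 101 CPM. The log2 difference of RGC-32 KO from WT was -0.46 without TGF-β (SE 0.10, 95% interval -0.68 to -0.24, adjusted p = 0.379) and -0.29 with it (SE 0.10, 95% interval -0.51 to -0.07, adjusted p = 0.319). Averaged over both treatments, a contrast added after the data were seen, it was -0.37 (adjusted p = 0.0755). Over 20 alternative settings this average ran from -0.43 to -0.31, and its adjusted p was under 0.05 in some of them and not in others. Of all tested genes, 1.51% had all 4 RGC-32 KO libraries below all 4 WT libraries.

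C4b differed the other way, with 280 to 304 CPM in the RGC-32 KO libraries and 248 to 278 CPM in the WT libraries. The log2 difference was 0.21 without TGF-β (SE 0.07, adjusted p = 0.675), 0.13 with it (SE 0.07, adjusted p = 0.553) and 0.17 in the average (adjusted p = 0.209), and 1.37% of all genes had all RGC-32 KO libraries above all WT libraries. Across the 8 libraries the log2 CPM of C4b and Cd59a correlated at -0.95, a description that the same split by genotype enters. The summed level of 4 Y chromosome genes also separated the genotypes, at 137 to 154 CPM in WT and 101 to 114 CPM in RGC-32 KO, as did markers of other cells. The astrocyte markers summed to 5342 and 6005 CPM in the RGC-32 KO controls against 4620 and 4847 CPM in WT, and to 4384 and 4716 CPM against 3705 and 3585 CPM with TGF-β. Their median log2 difference over both treatments was 0.21. The meningeal fibroblast markers were lower, with sums of 4486 to 4661 CPM against 5343 to 6677 CPM in the controls and 7940 to 7948 CPM against 10184 to 11626 CPM with TGF-β, and a median of -0.29. No marker of either list was called between genotypes. The part of cell composition and of the cultures' sex ratio in the values of Cd59a and C4b was not tested.

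The other 6 genes had small mean differences between genotypes. C3 was 0.09 higher on the log2 scale in RGC-32 KO controls (95% interval -0.37 to 0.55) and 0.11 higher with TGF-β (95% interval -0.35 to 0.56). The C1q chains and both receptors had log2 differences from -0.10 to 0.11, and the intervals of C3ar1, the widest, ran from -0.61 to 0.47 without TGF-β and from -0.53 to 0.57 with it. Even Cd59a, at -0.46 without TGF-β, had an adjusted p of 0.379 in the edgeR test. A difference near the fold limit could likewise have gone uncalled for any of these 6 genes.

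Whether RGC-32 alters the response to TGF-β is tested by the interaction, the effect in RGC-32 KO minus that in WT. None of the 8 genes was called, nor was any gene of the whole table (0% called), and 0 of 8 had an unadjusted p under 0.05, beside 2.82% of all genes. The interaction ran from -0.17 for C1qa (95% interval -0.68 to 0.35) to 0.17 for Cd59a (95% interval -0.14 to 0.48), and the smallest adjusted p was 1.000.

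The 8 genes are part of a wider list of 53 complement genes, of which 35 were in the table and 32 were tested. With TGF-β, 4 of the 32 were called higher and 3 lower in WT (7.72% and 5.65% of all tested genes), and 2 higher and 2 lower in RGC-32 KO cultures (6.61% and 4.93% of all tested genes). All of the calls fell outside the 8 genes. In WT the median log2 fold change of the 32 was -0.29, and in RGC-32 KO it was -0.06. Without the 8 genes these medians were -0.12 and 0.02. No gene of the list was called in either genotype comparison or in the interaction.

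Soluble regulators, which restrain activation in the fluid phase, were all lower in the mean. Of 4 tested, 2 were called lower in each genotype. Serping1, encoding the C1 inhibitor, had 177 CPM in both WT controls, 115 and 108 CPM in WT with TGF-β, 171 CPM in both RGC-32 KO controls and 142 and 120 CPM in RGC-32 KO with TGF-β. It fell by 0.66 on the log2 scale in WT cultures (adjusted p = 0.00103), and in RGC-32 KO cultures it was at -0.38 (adjusted p = 0.0113), short of the fold limit. C4bp, encoding the C4b-binding protein, was low throughout, at 2.37 to 7.16 CPM, and fell by 1.21 in WT cultures (adjusted p = 0.00659) and by 0.76 in RGC-32 KO cultures (adjusted p = 0.0468). Its call in RGC-32 KO cultures was lost under 12 of 21 alternatives, among them the omission of any 1 of 6 libraries. The value was -0.55 without TGF-β replicate 2 of that genotype and -0.63 without control replicate 2.

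Vtn, encoding vitronectin, fell by 1.39 in RGC-32 KO cultures (adjusted p = 0.00354) and was at -0.64 in WT cultures (adjusted p = 0.0655), from 6.39 CPM or less in every library. Without WT control replicate 1 its value in WT was -0.88 and past the threshold. Clu, encoding clusterin, was the most abundant of the group at 752 to 1431 FPKM, and at -0.42 in WT cultures (adjusted p = 0.00943) and -0.34 in RGC-32 KO cultures (adjusted p = 0.0261) it was short of the fold limit.

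Membrane regulators gave all but 1 of the calls for higher levels, with 3 of 7 called higher in WT and 2 of 7 in RGC-32 KO cultures and none lower. Cd55, encoding decay accelerating factor, had 26.3 and 24.0 CPM in the WT controls, 42.7 and 38.2 CPM in WT with TGF-β, 16.9 and 20.4 CPM in the RGC-32 KO controls and 31.6 and 31.5 CPM in RGC-32 KO with TGF-β. It rose by 0.69 in WT cultures (SE 0.10, adjusted p = 0.00219) compared with 0.76 in RGC-32 KO cultures (SE 0.11, adjusted p = 0.00214), whereas Cd59a, the other anchored inhibitor, did not pass the test. Reads of Cd55 may be shared with its neighbouring copy Cd55b.

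Susd4, which encodes a membrane protein with complement control domains, rose by 1.33 in WT cultures (adjusted p = 0.0184) and by 1.47 in RGC-32 KO cultures (adjusted p = 0.0129), from 4.54 to 8.29 CPM in the controls to 11.7 to 20.8 CPM with TGF-β. Both calls were lost without replicate 2 of either group compared, at values of 1.04 and 1.05 in WT cultures and 1.10 and 1.18 in RGC-32 KO cultures. Csmd2 rose by 0.80 in WT cultures (adjusted p = 0.0235) and was at 0.62 in RGC-32 KO cultures (adjusted p = 0.0647). The call in WT was lost without WT TGF-β replicate 2 (0.47) or without WT control replicate 1 (0.86) or 2 (0.73), and the value in RGC-32 KO cultures was past the threshold (0.61) when either WT TGF-β library was left out.

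Among serine proteases and components, 1 gene of each group was called in WT. Hc, encoding complement C5, the source of C5a, had 19.9 and 24.3 CPM in the WT controls and 13.5 and 13.0 CPM in WT with TGF-β. It fell by 0.74 in WT cultures (adjusted p = 0.00573) and was at -0.57 in RGC-32 KO cultures (adjusted p = 0.0180), where it was past the fold limit without control replicate 1 (-0.62) or TGF-β replicate 2 (-0.77). Masp1, a protease of the lectin pathway, rose by 1.11 in WT cultures (adjusted p = 0.0483) and was at 0.59 in RGC-32 KO cultures (adjusted p = 0.273). The call for Masp1 was lost under 12 of 21 alternatives, among them the omission of WT TGF-β replicate 2, which held 17.0 CPM against 8.29 CPM in replicate 1 and without which the value was 0.50.

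Several other partners of the 8 genes were present but not called in either genotype. C1ra and C1s1, the proteases that C1q carries, ran from 128 to 185 CPM and from 185 to 269 CPM over the 8 libraries. Cfb, factor B of the alternative pathway, ran from 30.9 to 71.2 CPM, Cr1l, a membrane regulator of C3, from 41.8 to 51.1 CPM, and C5ar2, a second receptor for C5a, from 1.61 to 2.74 CPM. Of the 6 genes of the terminal pathway on the list, none had a row in the count table. In the FPKM values C8g ran from 0.711 to 2.33, and C6, C8a, C8b and C9 were at 0.0340 or less in every library.

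Markers of several cell types moved alongside these genes, the astrocyte markers given at the outset among them. With TGF-β, 6 of 7 ependymal markers were called lower in WT and 4 of 7 in RGC-32 KO cultures, and their summed level went from 416 to 502 CPM in the controls to 272 to 330 CPM. Of all tested genes, 5.65% were called lower and 7.72% higher in WT, and 4.93% and 6.61% in RGC-32 KO cultures. All 4 TGF-β libraries were below all 4 controls for 20.2% of all tested genes. Of 9 meningeal fibroblast markers tested, 4 were called higher in each genotype and 1 lower in WT, and Dcn, Lum and Foxc1 had lower means in each genotype. The sum of the 9 went from 4486 to 6677 CPM in the controls to 7940 to 11626 CPM. It rested largely on Col1a1 (1191 to 1786 CPM in the controls, 2767 to 4627 CPM with TGF-β) and Col1a2 (995 to 1775 CPM and 2186 to 3441 CPM). The sums of 6 endothelial markers (99.8 to 127 CPM in the controls, 67.8 to 80.5 CPM with TGF-β), 8 markers of the oligodendrocyte lineage (221 to 266 CPM and 374 to 545 CPM) and 6 neuronal markers (302 to 367 CPM and 394 to 426 CPM) did not overlap either. Of these 3 lists, endothelial markers gave 2 calls higher and 1 lower in WT and 1 higher and 2 lower in RGC-32 KO cultures. The oligodendrocyte lineage gave 1 higher and 1 lower in WT and 2 higher and 1 lower in RGC-32 KO cultures, and neurons gave 1 higher in WT and 1 higher and 1 lower in RGC-32 KO cultures. The oligodendrocyte sum rested on Cspg4, a gene also known from pericytes, which went from 24.1 to 38.5 CPM in the controls to 153 to 302 CPM with TGF-β. Without it the sum of the other 7 markers overlapped, at 197 to 228 CPM in the controls and 204 to 271 CPM with TGF-β, and Pdgfra was called lower in both genotypes. The part of these cell types in the values of the 8 genes and of the regulators was not tested.

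**Figure D4:**
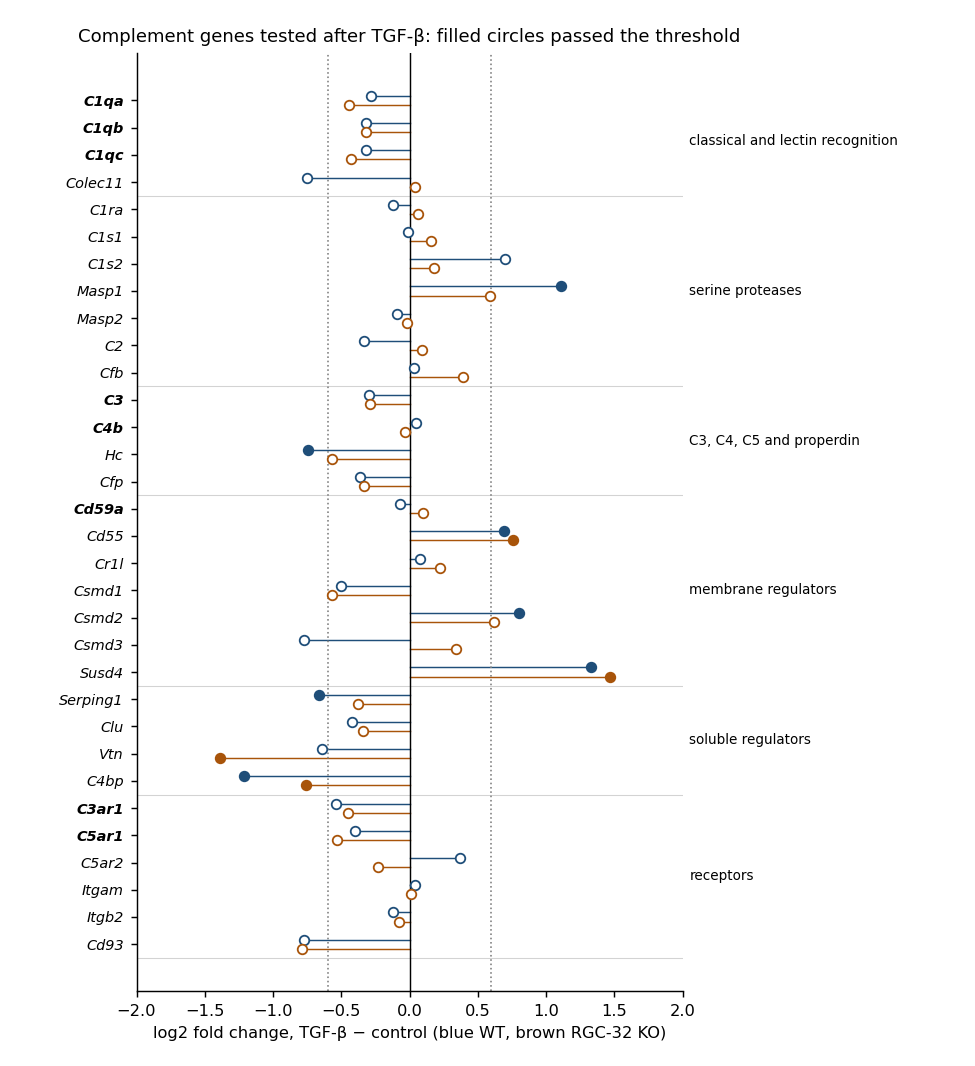
Log2 fold change with TGF-β of the 32 complement genes tested, by role, in WT (blue) and RGC-32 KO (brown), with filled circles past the threshold, the 8 genes described first in bold and dotted lines at the fold limit of 0.6. Filled circles below 0 include C4bp at -1.21 and -0.76, and those above 0 include Susd4 at 1.33 and 1.47 and Cd55 at 0.69 and 0.76.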

How the data were processed

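Reads were aligned by the authors with STAR within the VIPER pipeline to mm10, per the labels and the study's methods. The authors deposited a table of raw read counts per gene (13937 genes, no normalization, 0 columns left unmapped) and a table of FPKM values (18644 genes) ascribed to Cufflinks. The counting program and annotation are not given in the sources used here, and libraries were unstranded. The deposited DESeq2 tables hold the authors' own log2 fold changes and p-values and were not used.

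Counts were fitted in R 4.3.3 with edgeR 4.0.16 (filterByExpr, TMM, quasi-likelihood F test, 1 mean for each of 4 groups, 8 libraries) for 5 comparisons, with Benjamini-Hochberg adjustment over 13509 genes. Alternatives were DESeq2 1.42.0, limma 3.58.1 (voom, and log2 FPKM with a pseudocount of 1 or 0.1), other normalizations, filters and thresholds, 4 libraries alone, replicate blocks and omission of each library. The script was checked on simulated data. A prior count of 2 entered log2 CPM. The chi-square per degree of freedom between replicates was 6.257 to 10.36, so each library was kept as 1 sample. The edgeR p-values rest on the spread between the 2 libraries of each group. That spread was estimated jointly over all 4 groups and moderated across genes, so a library of 1 genotype also bears on the p-values of the other. Depth bears on counting error only.

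The members and lists were chosen with earlier results of these data known, and the contrasts averaged over genotypes or treatments after the data were seen. Named are the 8 genes, their copies and partners (with the regulators Serping1 and Clu counted as partners), listed complement genes called in any of the 5 comparisons, the 3 genes closest to C3, C4b and C1qa by Pearson correlation among genes with a mean of at least 1 CPM, Rgcc and microglial markers. Lists of endothelial, ependymal, meningeal fibroblast, neuronal and oligodendrocyte markers were read as well. 1 gene of the wider complement list is not reported here, and the counts of the list were made without that gene.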

Additional observations from a re-analysis of the deposited data

How the results depend on the processing

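With 2 libraries a group, 1 library decides much of what these values show. None of the 8 genes was called under any alternative in both genotype comparisons, in the interaction or with TGF-β in RGC-32 KO cultures. For TGF-β in WT the count of called members was 0 to 2 when 1 library was left out, with 2 without WT control replicate 2. For the wider list it was 4 to 9 when 1 library was left out in WT (fewest without WT TGF-β replicate 2) and 2 to 5 in RGC-32 KO cultures (fewest without control replicate 2). Values that changed sign when 1 library was left out are given as their ranges. With TGF-β they ran in WT from -0.03 to 0.11 for C4b and from -0.19 to 0.03 for Cd59a, and in RGC-32 KO cultures from -0.56 to 0.02 for C3 and from -0.10 to 0.02 for C4b. For RGC-32 KO against WT without TGF-β they ran from -0.24 to 0.36 for C3, -0.03 to 0.26 for C1qa, -0.15 to 0.22 for C1qb, -0.07 to 0.21 for C1qc, -0.42 to 0.39 for C3ar1 and -0.27 to 0.42 for C5ar1. With TGF-β the genotype difference ran from -0.22 to 0.13 for C1qa, -0.11 to 0.17 for C1qb, -0.22 to 0.16 for C1qc, -0.16 to 0.18 for C3ar1 and -0.33 to 0.11 for C5ar1. The interaction ran from -0.25 to 0.34 for C3, -0.33 to 0.01 for C1qa, -0.19 to 0.17 for C1qb, -0.29 to 0.09 for C1qc, -0.37 to 0.44 for C3ar1 and -0.53 to 0.17 for C5ar1.

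On FPKM with a pseudocount of 1, the wider list gave 3 calls in WT and 2 in RGC-32 KO cultures and 5 in the average over genotypes, and none remained with a Bonferroni correction (0 in each). With no fold limit there were 9 in RGC-32 KO cultures. In the average over genotypes, 8 of the 32 were called, 17 with no fold limit, 5 to 9 when 1 library was left out (fewest without WT TGF-β replicate 2) and 0 with Bonferroni. The members called in that average were 1 and 2 on FPKM with pseudocounts of 1 and 0.1, 5 with no fold limit, and 0 to 2 when 1 library was left out. FPKM moved the median of all genes with TGF-β by -0.10 to -0.13. On this scale C4b in WT was at -0.05 and Cd59a in RGC-32 KO cultures at -0.04 with either pseudocount, and C5ar1 in RGC-32 KO against WT with TGF-β was at 0.01. Upper quartile normalization put C4b in WT at -0.04 and turned the split of all calls in WT from 1043 higher and 763 lower to 857 and 1055, and in RGC-32 KO cultures from 893 and 666 to 747 and 895. The cause was not tested.

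The replicate numbers are not stated to mark a shared culture. The deviations of replicate 1 correlated at -0.343 between the treatments in WT and at -0.3477 in RGC-32 KO, but at 0.4909 between the control groups and 0.2534 between the TGF-β groups. With the replicate block none of the 8 genes was called, and the wider list gave 6 calls in WT and 3 in RGC-32 KO cultures, without Masp1 (adjusted p = 0.0680) and C4bp (adjusted p = 0.0745). With the numbers crossed between treatments, a pairing added after the data were seen, the wider list gave 9 and 6 calls and the 8 genes none.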
